A study of Mus musculus with 31 samples.

Results

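The MYC network is described here by 10 genes, Myc, Mycn, Mycl, Max, Mxd1, Mxd3, Mxd4, Mxi1, Mnt and Mga, out of 21938 protein-coding genes in the GENCODE M21 annotation of mm10. They were taken by name, with no threshold on a measured value, but earlier results of these data were known when the genes were chosen. Their chromatin accessibility was read from the ATAC-seq peak list of 1 parental NIH-3T3 library. NIH-3T3 is an immortalised fibroblast line from mouse embryos, and the parental line overexpresses no transcription factor (TF). In ATAC-seq, Tn5 transposase inserts adapters into DNA left free by nucleosomes, and a peak is a stretch where the tagged fragments pile up. The cells were grown in DMEM with serum, and 50000 of them were treated with 0.5 µM Tn5. Doxycycline is not among the labels of this library, whereas the methods state 500 ng ml−1 for 48 h without naming exceptions. The other 30 samples of the series, lines that overexpress a TF or carry rtTA3G alone, were not analysed here. Every value below describes this library alone, since there was no replicate and no test between samples could be made.

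MYC proteins are basic helix-loop-helix leucine zipper TFs that bind DNA as dimers with MAX, preferably at the E-box CACGTG, and drive genes of growth, ribosome production and metabolism. MXD1, MXD3, MXD4, MXI1 and MNT also dimerise with MAX at E-boxes, but recruit SIN3 corepressor complexes and oppose MYC. MGA, a very large protein with a second, T-box DNA-binding domain, dimerises with MAX within a variant Polycomb repressive complex. In fibroblasts, Myc is an early target of serum growth factors, while Mycn and Mycl are best known from developing neural and lung tissue.

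A peak was assigned to a promoter when it lay within 1 kb of the transcription start site (TSS) of any annotated transcript of the gene. Fold enrichment, as deposited, is the number of fragments at the summit of a peak over the number expected there, with 1 added to both. The expected number comes from the local surroundings but does not fall below a background of 2.81 fragments, the value at 26.3% of the peaks. The whole list held 63456 peaks with a median fold enrichment of 6.04. The median summit lay under 29 fragments and the lowest under 10. Fibroblast markers such as Col1a1, Col1a2 and Fn1 had a promoter peak in 9 of 9 cases, at 3.41-fold to 10.5-fold enrichment. Of 12 markers of other cell types, 3 had one, at 3.25-fold for the epithelial Krt8, 8.40-fold for the endothelial Pecam1 and 12.8-fold for the endothelial Cdh5. The others, among them Epcam, Cdh1, Ptprc, Cd3e, Myod1, Neurod1, Tubb3 and Alb, had none.

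A promoter peak was found for 8 of the 10 network genes, namely Myc, Max, Mxd1, Mxd3, Mxd4, Mxi1, Mnt and Mga. Mycn and Mycl had none. Across all protein-coding genes the share with a promoter peak was 53.7%. Promoters rich in CpG dinucleotides are open more often than others, and 9 of the 10 genes had a ratio of observed to expected CpG of at least 0.6 within 250 bp of the 5′ end. Among the 10749 protein-coding genes at or above that ratio, 81.7% had a promoter peak, so the count of 8 of 10 was close to the share of genes with a similar base composition.

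The 250 bases upstream of the 5′ end of a gene are shown for 7 members: for Max, Mxd3, Mxd4 and Mnt because they hold the E-box to which MAX dimers bind, for Mxd1 as the promoter with the highest fold enrichment, for Myc as the open promoter with the lowest, and for Mycn as a promoter without a peak. All are read from mm10 in the 5′ to 3′ direction of the gene. Capitals mark, on either strand, the E-box CACGTG, the GC box GGGCGG, the CCAAT box CCAAT, the E2F letters TTTNGCGC and the NRF1 motif with 1 free base.
Max (chr12:76962202-76962451, minus strand): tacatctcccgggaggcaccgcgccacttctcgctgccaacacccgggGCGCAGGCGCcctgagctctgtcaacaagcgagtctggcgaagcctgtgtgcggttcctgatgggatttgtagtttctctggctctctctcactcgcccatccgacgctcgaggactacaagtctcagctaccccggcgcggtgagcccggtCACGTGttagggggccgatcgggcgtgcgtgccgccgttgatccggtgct
Mxd3 (chr13:55329824-55330073, minus strand): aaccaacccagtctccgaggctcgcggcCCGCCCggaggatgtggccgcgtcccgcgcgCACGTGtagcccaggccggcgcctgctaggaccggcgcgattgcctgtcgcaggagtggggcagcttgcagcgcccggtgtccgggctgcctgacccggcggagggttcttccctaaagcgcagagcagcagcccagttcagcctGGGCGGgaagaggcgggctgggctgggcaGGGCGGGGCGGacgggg
Mxd4 (chr5:34187721-34187970, minus strand): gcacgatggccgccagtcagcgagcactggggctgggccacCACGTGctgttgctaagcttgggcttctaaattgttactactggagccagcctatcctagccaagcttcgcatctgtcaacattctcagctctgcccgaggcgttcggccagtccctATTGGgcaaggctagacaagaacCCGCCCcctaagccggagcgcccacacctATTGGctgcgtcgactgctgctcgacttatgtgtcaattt
Mnt (chr11:74830670-74830919, plus strand): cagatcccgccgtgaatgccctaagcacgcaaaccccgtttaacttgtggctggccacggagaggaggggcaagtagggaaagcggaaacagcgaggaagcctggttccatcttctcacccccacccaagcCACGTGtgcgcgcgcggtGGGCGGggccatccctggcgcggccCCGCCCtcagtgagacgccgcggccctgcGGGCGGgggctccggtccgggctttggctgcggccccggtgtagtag
Mxd1 (chr6:86669162-86669411, minus strand): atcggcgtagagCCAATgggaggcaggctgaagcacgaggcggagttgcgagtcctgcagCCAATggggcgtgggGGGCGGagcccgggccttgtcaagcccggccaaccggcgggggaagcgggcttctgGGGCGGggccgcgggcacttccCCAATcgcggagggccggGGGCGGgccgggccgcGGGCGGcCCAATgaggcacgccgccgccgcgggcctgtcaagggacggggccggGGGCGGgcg
Myc (chr15:61985141-61985390, plus strand): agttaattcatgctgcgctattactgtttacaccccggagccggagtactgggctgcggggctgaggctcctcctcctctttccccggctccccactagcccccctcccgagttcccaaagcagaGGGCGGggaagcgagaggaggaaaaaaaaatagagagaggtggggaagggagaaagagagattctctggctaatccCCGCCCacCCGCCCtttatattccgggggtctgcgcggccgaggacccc
Mycn (chr12:12941915-12942164, minus strand): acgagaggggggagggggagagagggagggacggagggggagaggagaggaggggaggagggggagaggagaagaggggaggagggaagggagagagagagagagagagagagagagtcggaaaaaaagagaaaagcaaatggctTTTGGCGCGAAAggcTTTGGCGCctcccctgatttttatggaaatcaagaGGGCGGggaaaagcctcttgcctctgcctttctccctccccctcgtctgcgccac

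CACGTG stood in these 250 bases in 4 of the 10 genes, Max, Mxd3, Mxd4 and Mnt, each of which had a promoter peak. Over all protein-coding genes the share was 6.53%, with 8.44% of genes with a promoter peak and 4.31% of those without. The E-box lay 50 bp upstream of the 5′ end of Max, 191 bp upstream of Mxd3 and 209 bp upstream of Mxd4. Thus the gene of the shared partner MAX and those of 3 of its repressive partners held the letters that MAX dimers recognise. The repressor genes Mxd1 and Mxi1, and Mga, Myc, Mycn and Mycl, did not hold them in this window. A match of letters does not show that a factor was bound, and binding was not measured here.

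GC boxes, the recognition letters of SP1 and related factors, stood in 8 of 10 windows, against 39.0% of all protein-coding genes, 54.2% of those with a promoter peak and 21.4% of those without. Of the 8 network genes with a promoter peak, 7 held it. Max had no GGGCGG in this window. Myc held 3 copies, 2 of them 49 and 41 bp upstream of its 5′ end. CCAAT, bound by the NF-Y trimer, stood in 2 of 10 windows (36.0% of all genes), with 4 copies in Mxd1 and 2 in Mxd4. The NRF1 motif stood in 2 windows, those of Max and Mga (4.67% of all genes). Mycn, without a peak, held 3 partly overlapping copies of the E2F letters (1.33% of all genes), which stood in no other of the 10 windows. A further 7 motifs stood in none of the 10 windows. In all protein-coding genes their shares were 6.05% for AP-1 (TGANTCA), 1.96% for CRE (TGACGTCA), 8.03% for ETS (CCGGAAG), 2.94% for TCF/LEF (CTTTGAT), 11.5% for TEAD (GGAATG), 13.0% for RUNX (TGTGGT) and 3.23% for T-box letters (TCACACC).

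Fold enrichment at the highest promoter peak ranged from 5.82 for Myc to 16.4 for Mxd1. The median over the 8 genes was 9.28, compared with 9.86 over the 11788 protein-coding genes with a promoter peak (quartiles 7.27 and 12.4). The 3 highest were Mxd1 (16.4), Max (13.1) and Mxd4 (12.4), and the 3 lowest were Mnt (7.09), Mxd3 (6.24) and Myc (5.82). Values in brackets below are exact Poisson 95% intervals from the number of fragments, which cover counting error only and not the spread between cultures or libraries. For every gene in this order, the interval overlapped that of the next gene. The interval of Mxd1 lay above those of Mxi1, Mga, Mnt, Mxd3 and Myc.

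**Figure D1:**
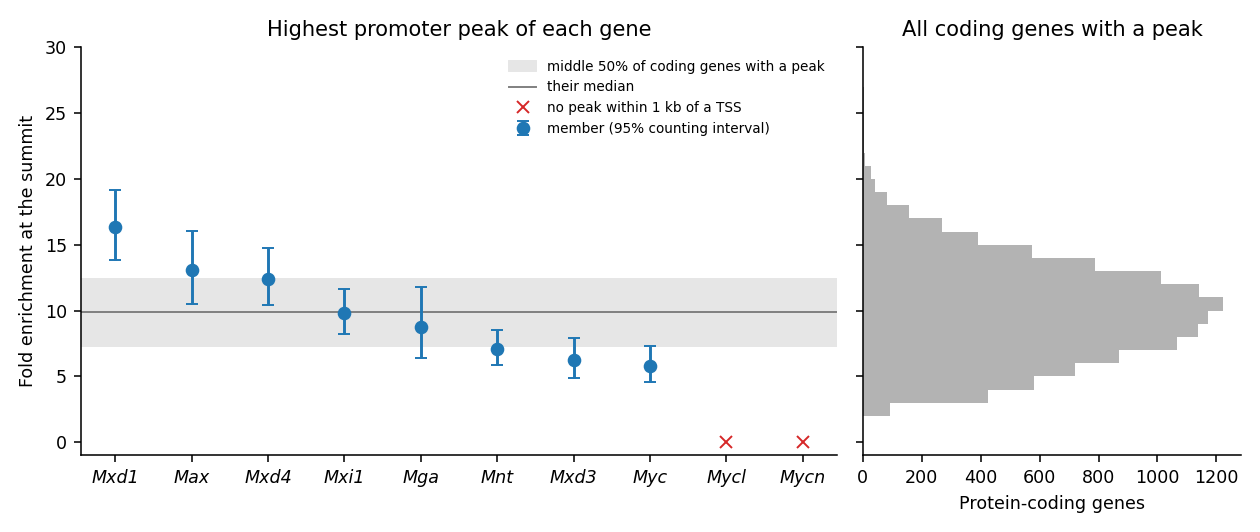
Fold enrichment at the summit of the highest promoter peak of each network gene (left; points with 95% counting intervals, crosses for genes without a peak within 1 kb of a TSS) beside the number of protein-coding genes per unit of fold enrichment (right). The grey band and line give the quartiles 7.27 and 12.4 and the median 9.86 of the 11788 genes with a promoter peak; Mxd1 and Max lie above the band, Mxd4 at its upper edge, and Mnt, Mxd3 and Myc below it.

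Max, the shared partner of the network, lies on the minus strand at chr12:76937269-76962201. Its promoter peak at chr12:76961856-76962799 covered 4 of its 7 TSSs. The peak had 89 fragments at the summit, where 5.88 were expected, a fold enrichment of 13.1 (10.5 to 16.1). This placed Max at percentile 80.5 of protein-coding genes with a promoter peak. Besides the E-box 50 bp upstream, a second CACGTG lay 325 bp upstream of the 5′ end within the same peak. The other 3 TSSs, inside the gene, were at least 7447 bp from any peak, and no other peak touched the body of Max.

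Myc, the best known oncogene of the family, lies on the plus strand at chr15:61985391-61990374 and is transcribed from a pair of closely spaced promoters. Its main promoter peak, chr15:61984861-61985812, was 952 bp wide and covered the TSSs at 61985391, 61985564 and 61985622. The summit lay 110 bp downstream of the 5′ end of the gene. It held 76 fragments with 12.2 expected, which gave a fold enrichment of 5.82 (4.60 to 7.27). A second peak at chr15:61986902-61987302 covered the TSS at 61987034 with 59 fragments and a fold enrichment of 4.27. All 6 annotated TSSs of Myc were within 1 kb of a peak.

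The rank of Myc depended on the measure. By fold enrichment it stood at percentile 14.2 of protein-coding genes with a promoter peak, but by the number of fragments at the summit it stood at percentile 63.3. The expected number of fragments around its promoter was at percentile 97.1. A similar gap was seen for Mnt, with 112 fragments (percentile 87.3) over 14.9 expected (percentile 99.1) and a fold enrichment at percentile 23.4. Mxi1 had 130 fragments (percentile 93.2) over 12.4 expected and a fold enrichment at percentile 49.2. By contrast, Max and Mga had expected numbers of 5.88 and 3.90 fragments, against a median of 5.50 over protein-coding genes. Over the 8 open genes the median was 100.5 fragments, compared with 64 over protein-coding genes with a promoter peak (quartiles 42 and 89). Their median was thus above the general median by fragments and slightly below it by fold enrichment (9.28 compared with 9.86). Single genes departed from this. Max, Mxd1 and Mxd4 were above the general median by fold enrichment, and Mga was below it by fragments. What set the high expected numbers was not tested.

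**Figure D2:**
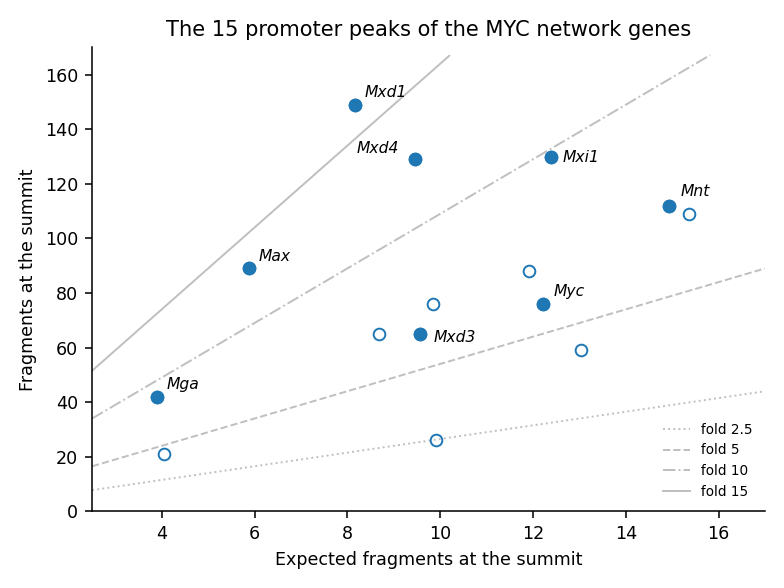
Fragments at the summit against the expected number for the 15 promoter peaks of the network genes; filled points are the highest peak of each gene, open points the further promoter peaks of Myc, Mxi1 and Mnt, and grey lines join points of equal fold enrichment. Myc, Mxi1 and Mnt lie to the right, with 12.2, 12.4 and 14.9 expected fragments, and Mxd1 lies highest with 149 fragments.

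Mycn and Mycl, the paralogues of Myc, had no promoter peak although their 5′ ends were GC-rich, at 62.7% and 62.5% GC compared with 60.7% for Myc. The observed to expected CpG ratio was 0.74 for Myc, 0.62 for Mycn and 0.50 for Mycl, and these were the 3 lowest of the 10 genes. The nearest peak to a TSS of Mycn was 30914 bp away. For Mycl the nearest was 4617 bp away, a peak of 3.68-fold enrichment. Among the 10150 protein-coding genes without a promoter peak this distance had a median of 23094 bp, so Mycl was closer to a peak than the median and Mycn farther. No peak touched the body of either gene. Absence from the list means only that no stretch passed the peak caller at the depth of this library.

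Mycn (chr12:12936093-12941914, minus strand) lies in a gene-poor region. Its neighbours were Fam49a, 555 kb away and without a promoter peak, and the RNA helicase gene Ddx1, 275 kb away with a promoter peak of 14.5-fold enrichment. Only 3 peaks lay within 50 kb of Mycn. The highest of them, 31.4 kb upstream at chr12:12972828-12973472, had 56 fragments and a fold enrichment of 11.3. Mycl (chr4:122995652-123002485, plus strand) is set between closer genes that were open, with Mfsd2a 34.5 kb away at 6.12-fold and Trit1, a tRNA-modifying enzyme gene, 14.1 kb away at 11.6-fold enrichment. Its window of 50 kb to either side held 8 peaks. The highest outside promoters lay 40.2 kb upstream of Mycl in an intron of Mfsd2a and reached 9.46-fold. These genes without a promoter peak thus had distal peaks of up to 11.3-fold and 9.46-fold enrichment within 50 kb. Whether these peaks act on Mycn or Mycl cannot be read from a peak list.

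Among the MAX-binding repressors, Mxd1, an antagonist of MYC that rises in differentiating cells, had the highest promoter peak of the network. The peak at chr6:86668967-86669756 had 149 fragments, with 8.17 expected, and a fold enrichment of 16.4 (13.9 to 19.2). This was percentile 96.0 of protein-coding genes with a promoter peak. It covered 3 of 4 TSSs of the gene, and its summit lay 295 bp upstream of the 5′ end. The 250 bp to either side of the summit held 7 CCAAT boxes, 6 GC boxes and a CRE, TGACGTCA, 363 bp upstream of the 5′ end. At 76.2% GC, the 5′ end of Mxd1 was the most GC-rich of the 10 genes.

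Mxd4 and Mxd3 differed in fold enrichment although the expected numbers of fragments were similar. At Mxd4 the peak chr5:34187132-34188292 had 129 fragments with 9.45 expected, a fold enrichment of 12.4 (10.4 to 14.8). At Mxd3, described mostly from proliferating cells, the peak chr13:55329300-55330833 had 65 fragments with 9.57 expected, a fold enrichment of 6.24 (4.84 to 7.93). The counting intervals of the pair did not overlap. The Mxd3 peak was 1534 bp wide and covered all 4 TSSs of the gene, whereas the Mxd4 peak covered 2 of 4. The E-box of Mxd4 lay 16 bp from the summit and that of Mxd3 lay 66 bp from it.

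Mxi1, the gene of a MAX partner also known as MXD2, had 5 promoter peaks spread over its body at chr19:53310518-53375810, and all 9 of its TSSs were within 1 kb of a peak. Of all protein-coding genes, 13.0% had 2 or more promoter peaks, as had Myc, Mxi1 and Mnt, and 0.743% had 4 or more, as had Mxi1. The peak at the 5′ end, chr19:53310354-53310675, had 88 fragments and a fold enrichment of 6.90. The highest, chr19:53313093-53314649, began 27 bp from an internal TSS and had 130 fragments and a fold enrichment of 9.79 (8.19 to 11.6). It held a CRE 37 bp from the summit and the AP-1 letters TGANTCA 157 bp from it. Another, chr19:53329233-53329916, covered 5 TSSs further inside the gene at 7.10-fold. The remaining peaks, chr19:53330174-53330299 and chr19:53369672-53369957, were weaker, with 26 and 21 fragments and fold enrichments of 2.48 and 4.35. The highest promoter peak of Mxi1 covered no TSS of the gene, and of the peaks that did, the one at the 5′ end had more fragments (88 compared with 76) while the one further inside had the higher fold enrichment.

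Mnt, which encodes the most widely expressed MAX-binding repressor, had 3 promoter peaks of similar fold enrichment, though the third had fewer fragments. The peak at its 5′ end, chr11:74829903-74830987, had 109 fragments and a fold enrichment of 6.72. A second, chr11:74831898-74832527, lay 978 bp inside the gene from the TSS and had 112 fragments and a fold enrichment of 7.09 (5.85 to 8.52). The third, chr11:74837769-74838809, lay 301 bp from an internal TSS and had 65 fragments and a fold enrichment of 6.82. The second was the promoter peak closest to the 1 kb limit. Just outside that limit was a peak in an intron of Mxd3, 1050 bp from its nearest TSS, with a fold enrichment of 4.37.

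Mga (chr2:119897228-119969581, plus strand) is the longest of the 10 genes and had a single promoter peak. The peak, chr2:119896861-119897677, had its summit 1 bp upstream of the 5′ end. It had 42 fragments, the fewest among the highest promoter peaks of the 8 open genes, but with 3.90 expected its fold enrichment was 8.77 (6.38 to 11.8). Mga had 12 TSSs, 4 of them in this peak and the other 8 at least 11686 bp from any peak. A pair of NRF1 motifs lay 54 and 22 bp upstream of the 5′ end.

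Together the 10 genes had 57 TSSs, of which 28 lay inside a peak. Counted within 250 bp of the summit, CACGTG was in 4 of their 15 promoter peaks (26.7%), compared with 12.5% of all 16264 promoter peaks. These 4 peaks were those of Max, Mxd3 and Mxd4 and the second peak of Mnt. The copy counted for Mnt lay 48 bp from that summit and is not the one upstream of its 5′ end. The upstream copy lay in the first peak of Mnt, over 250 bp from its summit. GGGCGG was in 13 of 15 peaks (60.3% of all promoter peaks), CCAAT in 7 of 15 (47.5%) and TGACGTCA in 2 of 15 (2.99%). TGANTCA was in 1 of 15, compared with 18.9%. The peaks of 1 gene share a locus, so these counts describe 8 genes. With 15 peaks, 1 peak is a share of 6.67% and 2 peaks are a share of 13.3%, so each share moves widely with 1 or 2 peaks.

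The genes with 50 kb to either side held 77 peaks. Of these, 15 were the promoter peaks of the network genes, 14 lay at promoters of other genes and 48 were distal, with 2 in exons, 14 in introns and 32 between genes. Mxi1 had 19 peaks in its window and Myc had 12, at percentiles 98.3 and 89.4 of protein-coding genes, for which the median was 5 (quartiles 2 and 9). The window includes the gene body, so longer genes had larger windows, and the percentiles were not adjusted for this. Mxi1 spans 65293 bp and Myc 4984 bp. Mycn and Mxd4 had 3 each and Max had 4. The remaining 5 genes had between 6 and 8. The median fold enrichment of the 48 distal peaks was 4.36, compared with 5.54 for all 47192 distal peaks of the list. Nearest to the 50 kb limit on the inside was a peak 49895 bp from Mga at 9.38-fold, and on the outside a peak 50591 bp from Mnt at 5.51-fold.

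**Figure D3:**
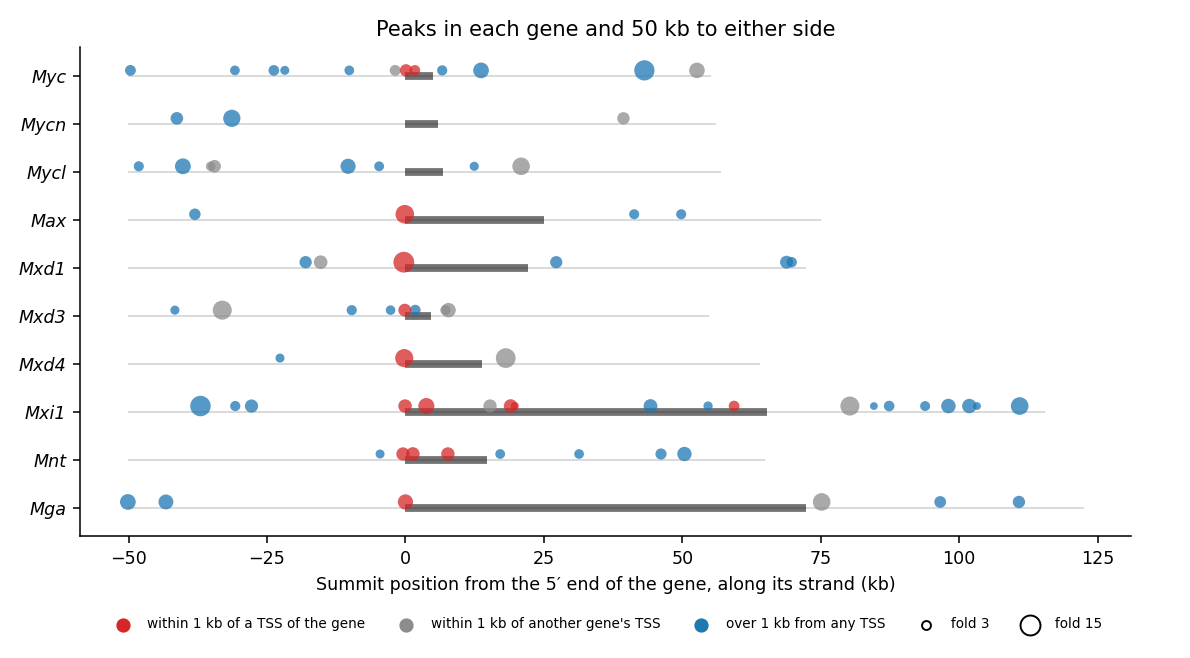
Peaks along each network gene and 50 kb to either side, by distance of the summit from the 5′ end along the strand of the gene in kb; the dark bar is the gene, point size follows fold enrichment and colour gives the position class. Mxi1 has 19 peaks and Myc 12, while Mycn and Mycl have no peak within 1 kb of a TSS.

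A distal peak near Mxi1 and one near Myc were the highest of the distal peaks in these windows. At Mxi1, chr19:53273199-53273971, 37.0 kb upstream of the 5′ end, had 127 fragments and a fold enrichment of 15.9, above that of any of the 5 promoter peaks of the gene. Downstream of Mxi1 and beyond its neighbour Smndc1, 7 further distal peaks stood between 84.6 and 110.9 kb from the 5′ end, with fold enrichments from 2.29 to 11.8. At the other genes the highest distal peak reached 11.3-fold for Mycn, 9.46-fold for Mycl, 9.38-fold for Mga and 7.78-fold for Mnt. Those of Mxd1, Max, Mxd3 and Mxd4 reached 6.31-fold, 4.99-fold, 4.37-fold and 3.08-fold. Mxd1, with the highest promoter peak, therefore had no distal peak above 6.31-fold within 50 kb.

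The Myc region was followed over 1 Mb to either side, since Myc lies in a long stretch without other protein-coding genes and is known for distant enhancers. No other protein-coding gene lay within 1 Mb. The nearest, A1bg and Gsdmc, were 1062 and 1786 kb away and had no promoter peak. The region held 99 peaks, 48 upstream and 51 downstream of the 5′ end of Myc, of which 90 were distal. This was 49.4 peaks per Mb, compared with 32.5 on chromosome 15 and 24.0 in the genome. The number of peaks within 1 Mb stood at percentile 78.1 of protein-coding genes, whose median was 72. The region was thus denser than its chromosome, whereas many genes had more peaks within the same distance.

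The number of peaks per 100 kb ranged from 0 to 9, and whether this differs from random placement was not tested. The 100 kb directly downstream of the 5′ end of Myc and the stretch from 300 to 400 kb downstream held 9 peaks each, as did the stretch from 600 to 500 kb upstream. The stretch from 300 to 200 kb upstream held 0. The longest gap between neighbouring peaks, chr15:61684250-61864676, was 180 kb long, at percentile 97.0 of the 62151 gaps on autosomes. In all, 14 peaks (14.1%) were enriched 10-fold or more, compared with 20.1% of all peaks, with 6 upstream and 8 downstream of the 5′ end. The median distal fold enrichment was 5.68 upstream over 46 peaks and 6.28 downstream over 44.

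**Figure D4:**
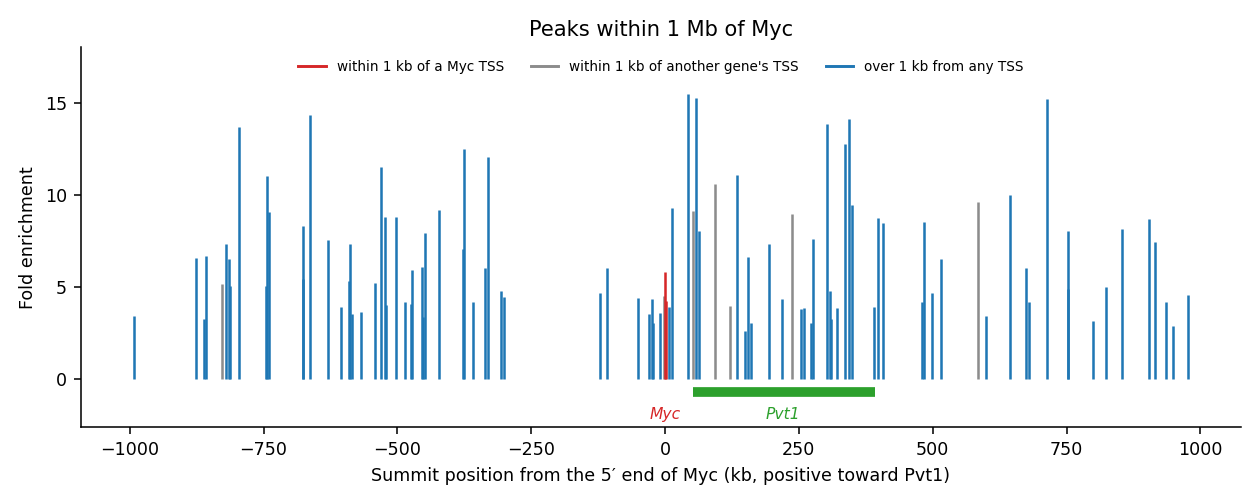
Fold enrichment of the 99 peaks within 1 Mb of Myc by distance of the summit from its 5′ end in kb; each line is a peak, coloured by position class, and the green bar is Pvt1. The promoter peaks of Myc reach 5.82-fold and 4.27-fold, and the highest distal peak, 43.1 kb downstream, reaches 15.5-fold.

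Pvt1, a long noncoding RNA gene that starts 47.6 kb beyond the end of Myc and spans 340 kb, contained the summits of 24 of the 99 peaks, or 70.6 per Mb. The peak at its 5′ end, chr15:62037731-62038368, had a fold enrichment of 9.15 and was higher by this measure than either promoter peak of Myc. By fragments the order was reversed, with 58 at this peak compared with 76 and 59 at those of Myc. Of the 14 peaks at 10-fold or more, 6 lay in Pvt1. The AP-1 letters TGANTCA stood within 50 bp of the summit in 12 of the 20 distal peaks in Pvt1 and in 20 of the 70 distal peaks outside it. The same letters stood in 32 of all 90 distal peaks of the region (35.6%), compared with 31.9% of all distal peaks of the list. In the windows of 50 kb around the 10 genes, they stood in 15 of 48 distal peaks (31.2%).

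The 5 distal peaks with the highest fold enrichment in the Myc region lay on both sides of the gene. The highest, chr15:62028369-62028926, lay 43.1 kb downstream of the 5′ end, between Myc and Pvt1, with 90 fragments and a fold enrichment of 15.5. Next came chr15:62043669-62044076 in an intron of Pvt1, 58.5 kb downstream, with 130 fragments and a fold enrichment of 15.2. The peak chr15:62698541-62699080, 713 kb downstream in an intron of the noncoding gene Gm41333, also reached 15.2-fold. On the upstream side, chr15:61322266-61322698 lay 663 kb away in an exon of the noncoding gene Gm29904 at 14.3-fold. The last, chr15:62328315-62328889, lay 343 kb downstream in an intron of Pvt1 at 14.1-fold. Each of the 5 therefore exceeded the promoter of Myc in fold enrichment, while the expected number of fragments at the Myc promoter was higher, at 12.2 compared with 4.87 at the highest of them. By fragments, the peak 663 kb upstream, with 69, lay below the 76 of the Myc promoter, and the others lay above it.

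The summits of 2 of these peaks are shown with 50 bp to either side because they were those of the 5 with the AP-1 letters in that width. Within 250 bp of the summit, the letters also stood in the peaks 58.5 kb and 713 kb downstream. They did not stand in the peak 663 kb upstream at that width. Capitals mark TGANTCA, the RUNX letters TGTGGT and the TEAD letters GGAATG on either strand. AP-1, RUNX and TEAD are TF families found at distal elements of fibroblasts.
Myc, 43.1 kb downstream (chr15:62028486-62028586, plus strand): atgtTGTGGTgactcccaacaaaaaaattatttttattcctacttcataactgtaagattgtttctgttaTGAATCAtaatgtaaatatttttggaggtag
Myc, 343 kb downstream (chr15:62328567-62328667, plus strand): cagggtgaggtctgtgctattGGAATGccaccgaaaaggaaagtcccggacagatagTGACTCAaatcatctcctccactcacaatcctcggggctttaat
The first held TGTGGT and TGAATCA and the second GGAATG and TGACTCA. The N in TGANTCA stands for any base, so the match in the first has A at that place and the match in the second has C. Among all distal peaks of the list, 13.2% held TGTGGT and 9.52% held GGAATG in the same width.

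Genes that work with the network were mostly open. Of 64 genes in 6 lists of partners, regulators and targets, 61 had a promoter peak. The share was 53.7% over all protein-coding genes and 81.7% over those with a CpG ratio of at least 0.6. How many of the 64 genes reach that ratio was not counted. All 10 transcriptional cofactors of MYC had one, with the highest at Ep400 (12.5-fold), a chromatin remodeller gene, and Trrap (11.0-fold), which encodes a scaffold of acetyltransferase complexes. The 8 SIN3 corepressor genes, whose products act with MXD proteins and MNT, were all open, with a median of 12.6-fold and the highest values at Hdac1 (14.2-fold) and Sap18 (13.1-fold). Among the partners of MGA in its Polycomb complex, 8 of 9 had a promoter peak, led by Rnf2 (14.6-fold) and L3mbtl2 (11.8-fold), and E2f6 had none within 1 kb of a TSS, its nearest peak being 2588 bp away.

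Regulators of MYC protein stability had a promoter peak in 10 of 10 cases. Fbxw7, the substrate receptor of a MYC ubiquitin ligase, was among the highest at 14.1-fold. Of 24 MYC target genes, 23 had one, with Ddx18 at 17.9-fold and Pa2g4 at 14.3-fold the highest. Tert, the telomerase reverse transcriptase gene, was the exception, with its nearest peak 1245 bp away. In the MLX arm of the network, Mlxip (12.5-fold) and Mlx (4.53-fold) had a promoter peak, and Mlxipl, a glucose-responsive factor best known from liver, did not, with its nearest peak 5475 bp away. The median over the 61 open genes was 10.4-fold, compared with 9.86 over all protein-coding genes with a promoter peak. Whether these lists consist mostly of widely expressed genes was not tested. The count of 61 of 64 stands beside a share of 53.7% for all protein-coding genes without being a test.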

How the data were processed

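Parental NIH-3T3 cells were profiled by ATAC-seq in 1 library. Paired-end reads had been mapped to mm10 with STAR 2.5.3a, duplicates taken out with Picard, and peaks called by the authors with MACS2 2.1.1.20160309 on whole fragments (versions from the submitters' processing notes). The peak list does not hold the read number of the library. The deposited fold enrichment is a ratio with 1 added to both terms. A Poisson test at the summit gave the deposited −log10 p and, after adjustment over all positions, the deposited −log10 q, which the deposited score follows. No value of other samples was used.

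Fold enrichment and −log10 p were solved for the observed and expected fragments at the summit of 63427 of 63456 peaks, and 99.998% of the solutions were within 0.02 of a whole number. This step was tested on simulated data. Coordinates are mm10, counted from 1, and were compared with GENCODE M21 and the GRCm38 sequence of the same build. Distal peaks lay over 1 kb from any TSS. Motifs were exact letters on both strands, counted within 250 bp (promoter) or 50 bp (distal) of the summit. The letter N matched any base, so the shares for TGANTCA include matches with A or T in the middle. Named were all members, their promoter peaks, neighbours and Pvt1, the highest distal peak per member and the 5 highest near Myc, and in each related list the genes without a promoter peak and the 2 with the highest fold enrichment. A few items that this rule names are not reported here. The members and lists were chosen with earlier results of these data known. Stricter peaks (q of 0.01, q of 1e-05, or 5-fold enrichment), other distances, TSSs and motif windows were tried as alternatives. Python 3.11.15 was used with pandas 2.3.3, NumPy 2.4.6, matplotlib 3.10.9 and SciPy 1.17.1.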

Additional observations from a re-analysis of the deposited data

How the results depend on the processing

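Of 39 alternatives, 10 moved a value and 29 did not. A count was taken as moved beyond 1.5 times the reported one, a share outside its 95% binomial interval, and the median fold enrichment when its printed value changed at all. The 8 genes with a promoter peak became 9 at a distance of 5 kb from a TSS, which added Mycl, and stayed 8 under the other 5 alternatives. The median fold enrichment of 9.28 was 7.94 with peaks that overlap a TSS and 8.77 with peaks up to 5 kb away. Peaks within 1 Mb of Myc fell from 99 to 57 at 5-fold enrichment or more and were 56 within 500 kb. The 77 peaks in the gene windows became 43 at 5-fold enrichment or more, 42 with 20 kb and 119 with 100 kb to either side. CACGTG was in 6.67% of promoter peaks (1 of 15) within 50 bp of the summit. The share of all promoter peaks was counted only within 250 bp (12.5%), so no comparison can be made at the narrower width. TGANTCA was in 52.1% of distal peaks over the whole peak, a setting for which the share of all distal peaks was not counted. It was in 54.2% within 250 bp of the summit, compared with 52.8% of all distal peaks within 250 bp. No paired analysis was possible because the parental line had 1 library. The spread between cultures is therefore unknown for every peak, and a promoter without a peak may hold accessibility below the depth of the list.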
